A study of Danio rerio with 8 samples.

Results

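The 5 genes pigp, sccpdha, foxq1a, sdr42e2 and nfr were chosen by name from 1293 zebrafish genes that the authors had listed as different between iqgap1 mutant and wild-type embryos. They were picked because their transcripts were much more abundant in the mutants, so that difference is described here and not tested. All 5 names were found in the authors' deposited table. By the authors' log2 fold change they stood at places 13 (nfr), 35 (pigp), 83 (sdr42e2), 86 (sccpdha) and 97 (foxq1a) of the 761 genes listed as higher. Among the 393 higher genes with a gene name they stood at places 3, 7, 17, 18 and 20. The question was how large and how even each change was, and whether the gene was silent in wild type or expressed there at a lower level.

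RNA was measured in whole embryos at 53 hours post fertilisation, in 4 pools with genotype iqgap1-/- and 4 wild-type pools. The mutant embryos had been picked because they bled, so genotype and hemorrhage cannot be told apart in these groups. According to the series' design each pool held 20 embryos, whereas the extraction protocol speaks of single larvae. The sources used here give neither the iqgap1 allele nor the parentage of the pools, so the p-values below measure the spread between these pools, which may be technical. Over the listed genes the expected counts summed to between 354272 and 552331 per pool, a sum over part of each library and so no measure of its depth.

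The 5 genes are not known as one pathway. Glycosylphosphatidylinositol (GPI) anchors are lipids built in the endoplasmic reticulum that hold many proteins on the cell surface, and pigp encodes a subunit of the enzyme that makes the first intermediate. The genes sccpdha and sdr42e2 are named for oxidoreductase families, the saccharopine dehydrogenase-like proteins and the short-chain dehydrogenases and reductases, whose members use nicotinamide cofactors. Forkhead proteins such as foxq1a bind DNA and regulate transcription, and in mice the satin coat mutation lies in Foxq1. RefSeq lists nfr as a long non-coding RNA gene with the synonym oor and no protein model. The libraries were made by ribosomal RNA depletion with random priming, which can capture transcripts of this kind.

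The mutated gene was read first. Its protein is a scaffold at actin filaments and cell junctions. The iqgap1 transcript (ENSDARG00000078888) had 1111, 970.3, 902 and 1245 normalized counts in the mutant pools, against 2184, 2118, 2212 and 2115 in the wild-type pools. Normalized counts are expected counts divided by a size factor per pool, on the scale of the authors' fold changes. All 4 mutant pools lay below all wild-type pools, with a log2 fold change of -1.03 and an SE of 0.12 (adjusted p = 0.000994 by edgeR's quasi-likelihood test). As iqgap1 was listed by the authors' own comparison of the same pools, the test here adds no separate support. The transcript was still counted in every mutant pool.

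None of the 5 genes changed in an on-off manner by the rule used, which asks for 3 or fewer counts in every wild-type pool. Each was counted in all 4 wild-type pools and was 4.62-fold to 15.4-fold higher in the mutants by the ratio of group means. In every one of the 5, the lowest mutant pool lay above the highest wild-type pool. That separation held for 87.3% of the 761 genes listed as higher, so it is common in a table selected for a difference. The edgeR test called all 5 as higher, against 37.5% of the 1126 listed genes tested; with size factors over the listed genes (RLE) 113 genes were called higher and 465 lower, in place of 422 higher and 330 lower. Since the genes were chosen on this contrast, nothing is read from either count. All listed genes were selected for a difference, so a scale set over them has no unchanged majority to rest on. Whether that scale is better than the authors' scale was not tested.

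**Figure D1:**
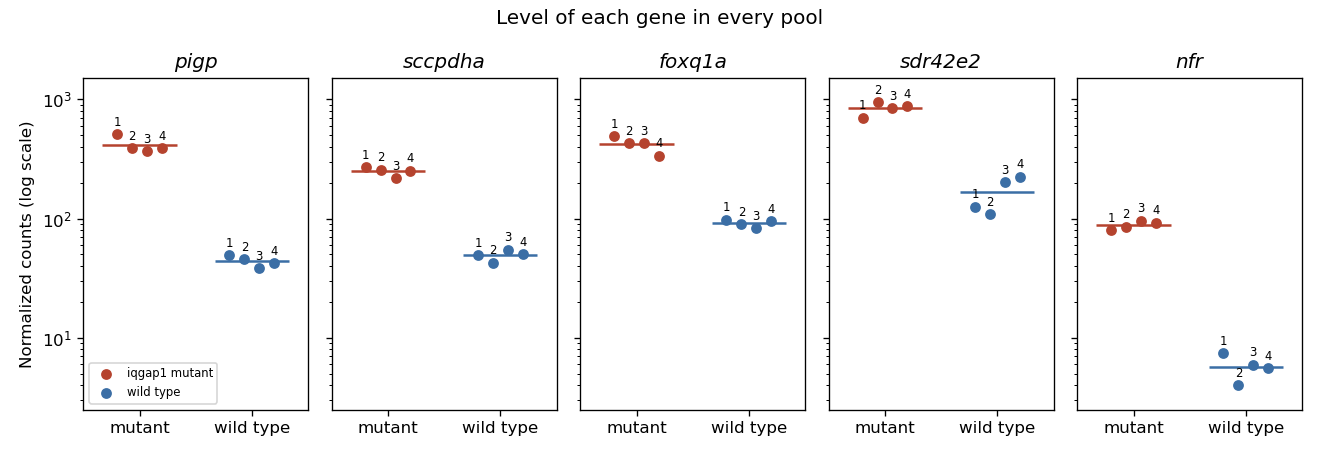
Normalized counts of each of the 5 genes (log scale) in every pool, with mutant pools left and wild-type pools right; numbers are replicate numbers and bars are group means (n = 4 pools each). All mutant pools lie above all wild-type pools for each gene, and nfr alone falls under 10 in wild type.

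The GPI anchor gene pigp (ENSDARG00000038805) was expressed at a low, even level in wild type and at a high level in all mutants. It had 514, 392, 368 and 389 normalized counts in the mutant pools. The wild-type pools had 49.3, 45.9, 38.2 and 42.4. Mutant pool 1 was the highest, and the other 3 mutant pools were close together. The means were 416 ± 66 in the mutants and 43.9 ± 4.78 in wild type (SD, n = 4 each), a ratio of 9.46. The lowest mutant pool was 7.47-fold above the highest wild-type pool, and without mutant pool 1 the log2 fold change was 3.12, against 3.24 ± 0.15 (SE) with it.

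Of the 33 symbols on a list of GPI anchor synthesis genes, pigp alone was in the table. The other 32, which include the further subunits of the same transferase piga, pigc, pigh and pigq, were not analysed here.

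The saccharopine dehydrogenase-like gene sccpdha (ENSDARG00000075766) had the most even mutant level of the protein-coding members. The mutant pools had 270.5, 258, 218 and 253 normalized counts. The wild-type pools had 49.6, 42.6, 54.8 and 50.5. No pool of either group stood apart, and the groups were 3.98-fold apart at their nearest. The means were 249.8 ± 22.3 in the mutants and 49.4 ± 5.05 in wild type (SD, n = 4 each), a ratio of 5.06 and a log2 fold change of 2.33 ± 0.13 (SE).

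The sccpdha row shares reads with a near copy. RefSeq's GRCz12tu annotation places the gene, there called sccpdha.1, next to sccpdha.2, which is the table's row SCCPDH (1 of many) (ENSDARG00000075053). The expected counts of sccpdha were fractional in all 8 pools (277.04, 247.48, 170.61 and 238.77 in the mutants, and 53.25, 42.73, 64.59 and 54.79 in wild type). So were those of the copy, yet the sum of both rows was a whole number in all 8 pools. The sums were 318, 292, 203 and 289 reads in the mutant pools, against 66, 55, 77 and 60 in the wild-type pools. Of the 1292 other listed genes, this copy was the only one whose sum with sccpdha was whole in every pool. RSEM divides reads that match several genes by estimate, and these reads were divided between these rows.

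The higher level of both rows together did not depend on how the reads were divided. The sccpdha row took 82.6% to 87.1% of the sum in the mutant pools and 77.7% to 91.3% in the wild-type pools, so the ranges overlapped. The copy had 45.2 ± 5.97 normalized counts in the mutants and 9.86 ± 3.45 in wild type, and rose by 2.21 ± 0.28 (SE) on the log2 scale (adjusted p = 0.00144, edgeR's quasi-likelihood test). As reads were divided between the sccpdha row and the copy by estimate, this is not a separate result. Neither row taken alone shows that its own gene rose, and only their sum does not rest on the division. The summed level was 295 ± 23.8 in the mutants and 59.2 ± 5.05 in wild type (SD, n = 4 each), a log2 ratio of means of 2.32.

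**Figure D2:**
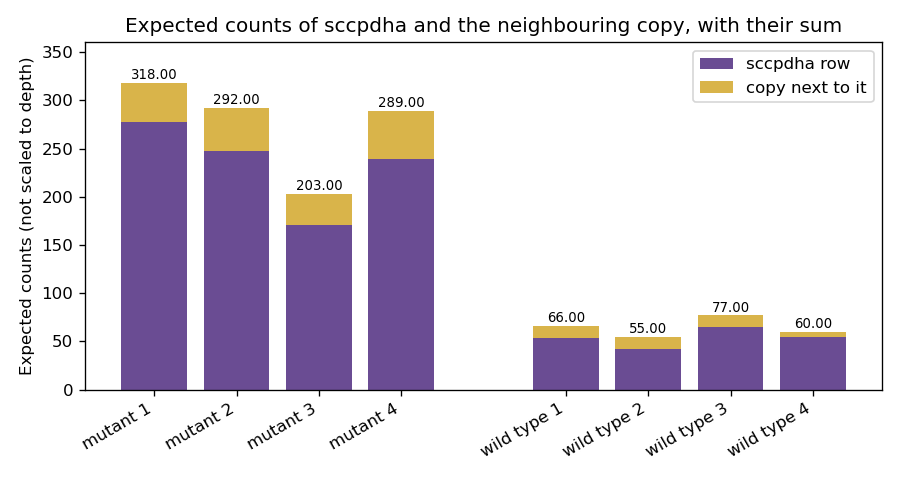
Expected counts, not scaled to depth, of the sccpdha row and of the copy next to it, stacked for each mutant pool (left) and wild-type pool (right), with the sum printed above each bar. The sum is whole in every pool, from 203 to 318 in the mutants and from 55 to 77 in wild type.

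Of 15 symbols on a list of saccharopine dehydrogenase-like and lysine breakdown genes, 2 were in the table, sccpdha and crym. The crystallin mu gene crym, which in mammals encodes a thyroid hormone binding protein and ketimine reductase, had 70.3 ± 8.89 normalized counts in the mutants and 45.9 ± 4.65 in wild type. Its log2 fold change of 0.61 ± 0.16 (SE) did not pass the edgeR quasi-likelihood test (adjusted p = 0.0979). In the authors' own comparison crym had passed, as had every listed gene, also those that do not pass here. The paralog sccpdhb and the lysine breakdown enzyme gene aass were not analysed here.

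The short-chain dehydrogenase gene sdr42e2 (ENSDARG00000059914) was the member with an uneven wild-type level. The mutant pools had 702, 947, 847 and 875 normalized counts. The wild-type pools had 126, 109, 203 and 225, so that pools 3 and 4 held more than pools 1 and 2. All mutant pools were higher than all wild-type pools, by 3.12-fold at the nearest. The means were 843 ± 103 in the mutants and 166 ± 57 in wild type (SD, n = 4 each), a ratio of 5.09. The log2 fold change of 2.34 ± 0.22 (SE) ranged from 2.19 without wild-type pool 2 to 2.53 without wild-type pool 4.

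Of 73 symbols on a list of short-chain dehydrogenases and reductases, 5 were in the table, and in the mutants all 5 had the higher level, as had 58.9% of all listed genes. The 4 beside sdr42e2 had log2 fold changes of 0.74 to 1.45, with a median of 0.78. The median over all 1126 genes tested was 0.70, but it mixes higher and lower genes and is no measure of the higher ones alone. The test called 3 of these 4 as higher, and with RLE size factors it called 1 of them. The share called higher over all listed genes tested, 37.5%, likewise includes genes listed as lower. It is therefore no measure for genes listed as higher, and nothing is read from the count. The other symbols of this list were not analysed here. The gene dhrs13a.2 had 484 ± 92.1 normalized counts in the mutants and 177 ± 23.3 in wild type, and rose by 1.45 ± 0.16 (SE) on the log2 scale (adjusted p = 0.000766, edgeR's quasi-likelihood test). Its relative dhrs13l1 had 340.4 ± 12.7 counts in the mutants and 205 ± 17.7 in wild type. The test called it at 0.74 ± 0.10 (SE) on the log2 scale (adjusted p = 0.0027, edgeR), and with RLE size factors the value was 0.22 with no call. The gene dhrs7ca, with 219 ± 28.3 counts in the mutants and 124 ± 16.3 in wild type, was called at 0.82 and likewise lost its call at 0.31. The gene hsd17b8, which in humans acts in mitochondrial fatty acid synthesis, had a log2 fold change of 0.74 and was not called (edgeR quasi-likelihood test, adjusted p = 0.0678).

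The forkhead gene foxq1a (ENSDARG00000030896) was expressed at an even level in wild type and varied more between mutant pools. The mutant pools had 493, 431, 427 and 337 normalized counts. The wild-type pools had 97.7, 89.7, 83.1 and 95. Mutant pool 4 was the lowest of its group and was still 3.45-fold above the highest wild-type pool. The means were 422 ± 64.3 in the mutants and 91.4 ± 6.43 in wild type (SD, n = 4 each), a ratio of 4.62 and a log2 fold change of 2.21 ± 0.14 (SE).

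Of 61 forkhead symbols, 3 were in the table. The paralog foxq1b was not among them. The gene foxb1b, a factor of the developing nervous system, had 128 ± 27.2 normalized counts in the mutants and 80.8 ± 15.6 in wild type, and its log2 fold change of 0.66 ± 0.20 (SE) did not pass (edgeR quasi-likelihood test, adjusted p = 0.17). The gene foxh1, a partner of Smad proteins in Nodal signalling, was too low for the count filter and was not tested. It ranged from 1.95 to 21.7 normalized counts in the mutant pools and from 0.848 to 4.99 in the wild-type pools, and these ranges overlapped.

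The non-coding gene nfr (ENSDARG00000114540) came nearest to an on-off change. It had 82, 82, 75 and 87 expected counts in the mutant pools, against 8, 4, 7 and 6 in the wild-type pools. The 95% exact Poisson intervals ran from 59 to 107 over the mutant pools and from 1.09 to 15.8 over the wild-type pools. They cover counting error only and are not scaled to depth. As nfr was chosen on this contrast, nothing is read from the gap between them. In normalized counts the mutant pools had 80.1, 85.4, 95.9 and 92.2, and the wild-type pools 7.45, 3.99, 5.94 and 5.53. The means were 88.4 ± 7.07 in the mutants and 5.73 ± 1.42 in wild type (SD, n = 4 each), a ratio of 15.4, and the lowest mutant pool was 10.7-fold above the highest wild-type pool. The log2 fold change was 3.91 ± 0.22 (SE).

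The wild-type counts of nfr were thus low, but above the floor of 3 in each pool. The Poisson intervals of wild-type pools 2, 3 and 4 reached below that floor (lower ends 1.09, 2.81 and 2.2). Within counting error nfr is therefore not shown to be above the floor in any of those pools taken alone. The pools were not tested together. With a floor of 10 counts in its place, nfr would count as at the floor in wild type, and the other 4 genes would not. Among the 132 genes listed as at least 4-fold higher, 23 (17.4%) showed an on-off pattern with the floor of 3. It asks for 3 or fewer counts in every wild-type pool and more than 3 in every mutant pool. Of the 5 genes described here, 0 showed it. With the floor of 10 the share of the 132 was again 17.4%, and 1 of the 5, nfr, was at the floor in wild type. In 5 genes, neither count can be told from that share. None of the 132 was at 0 in all 4 wild-type pools. The ratio of the lowest mutant pool to the highest wild-type pool was 3.12 to 10.7 in the 5 genes. In the other 127 genes listed as at least 4-fold higher it had a median of 2.22 and quartiles of 1.37 and 3.56. This ratio comes from the values on which the 5 genes were chosen, so nothing is read from the difference. As each pool may average many embryos, a gene that is on in some embryos and off in others cannot be told apart from one with an intermediate level in all.

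The spread between wild-type pools was low for 4 of the 5 genes, beside listed genes of like level. In wild type the coefficient of variation (SD over mean, 4 pools) was 10.9% for pigp, 10.2% for sccpdha, 7.03% for foxq1a and 24.8% for nfr. Counting error alone would give 14.5%, 13.7%, 10.1% and 40.1% on average, so the wild-type spread of these 4 genes was not above counting error. With 4 pools per group, and genes from a table selected for a difference, nothing further is read from the lower values. The exception was sdr42e2, with 34.4% against 7.43% from counting. It was more variable in wild type than 93.9% of the 312 listed genes of like level (within 2-fold), while the other 4 genes were more variable than 10.2% to 18.3% of theirs.

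In the mutants the spread of pigp (15.9%) and foxq1a (15.2%) was about 3 times that of counting error (5.09% and 5.07%). For sdr42e2 it was 12.2% against 3.6%, for sccpdha 8.94% against 6.58%, and for nfr 7.99% against 11.1%. Listed genes of like level had medians of 12.6% to 15.5% in the mutants, and the 5 genes were more variable than 14.1% to 67.9% of theirs. The highest mutant pool was pool 1 for pigp, sccpdha and foxq1a, and the lowest was pool 1 for sdr42e2 and nfr. The observed order of mutant pools thus differed between the genes. For nfr the spread was below counting error, so its order cannot be told from counting noise.

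**Figure D3:**
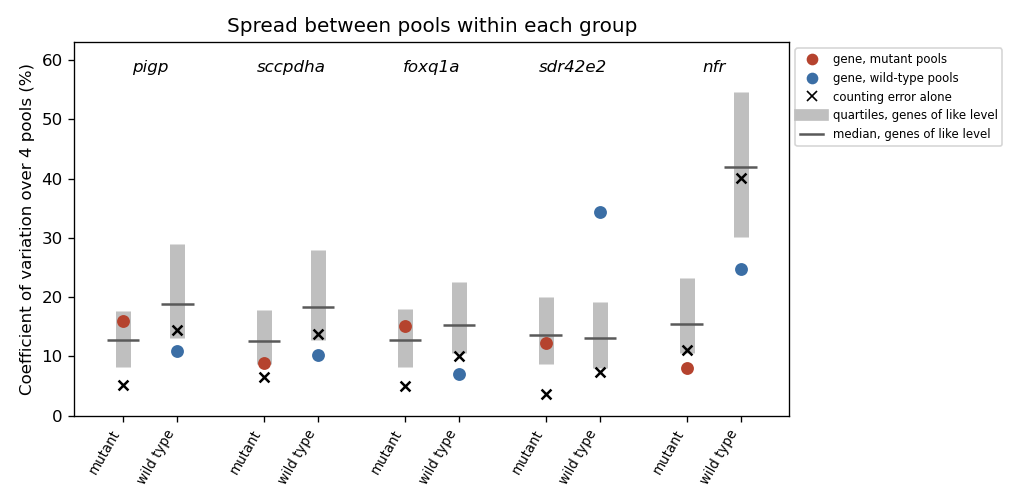
Coefficient of variation over 4 pools in percent for each gene, with mutant pools left of wild-type pools; crosses are the value that counting error alone would give, and grey bars and lines are the quartiles and median of listed genes within 2-fold of the same level. The wild-type pools of sdr42e2, at 34.4%, lie above the grey bar, and the wild-type pools of the other 4 genes lie below it.

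The genes nearest to each member were found by the root mean square difference over 8 pools of log2(normalized count + 1), each gene set to its own wild-type mean. This distance mostly reflects the size of the mutant over wild-type fold on which the members were chosen, so it names genes of like fold and is no sign that they vary together. The mutant pools of sccpdha and foxq1a, for instance, deviated from their group means by -0.19 and 0.03 in pool 3 and by 0.02 and -0.31 in pool 4 (log2). The candidates were 621 genes with a gene name and a mean of 10 or more. Nearest to foxq1a was the complement factor H-like gene cfhl2, with a distance of 0.19 (median over candidates 1.12), then sccpdha at 0.21 and the inducible cyclooxygenase gene ptgs2b at 0.26. Nearest to sccpdha were foxq1a at 0.21, cfhl2 at 0.22 and the protocadherin gene pcdh1g11 at 0.25. The levels of cfhl2 were 782 ± 39.6 normalized counts in the mutants and 179.8 ± 29 in wild type.

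For sdr42e2 the nearest genes were sccpdha (0.30), the finTRIM gene ftr02 (0.30) and the rod phosphodiesterase gene pde6b (0.39). For pigp they were crp2 (0.39), a C-reactive protein gene, then nfr (0.48) and the transglutaminase-like gene tgm1l4 (0.57). For nfr they were pigp (0.48), crp2 (0.76) and the cerebellin family gene cbln12 (0.89). The gene crp2 was far less abundant, with 29 ± 11.5 normalized counts in the mutants and 2.83 ± 1.56 in wild type. The median distance over candidates was 2.21 for nfr and 1.82 for pigp.

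In RefSeq's GRCz12tu annotation the 5 genes lie on 5 different chromosomes, and 0 of them on that of iqgap1. Their next genes on either side, 10 in all, were looked up after the results were known. A gene listed as higher lay next to 3 of the 5. This was so for 71 of the 512 other genes listed as higher that could be placed (13.9%). The lookup was made after the results were known and covers only 5 genes, so nothing is read from the difference. For sccpdha the listed neighbour was the copy described above, which shares its reads. Next to foxq1a lay irf4a, whose mammalian counterpart is a transcription factor of lymphocytes and pigment cells. It had 9.76, 9.37, 15.3 and 8.48 normalized counts in the mutant pools, against 5.59, 1.99, 5.94 and 2.77 in the wild-type pools. The groups did not overlap, but the counts are small and irf4a did not reach the count filter, so it was not tested.

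Next to nfr lay zgc:162952, with 193, 177, 153 and 195 normalized counts in the mutant pools, against 106, 94.7, 110.3 and 133 in the wild-type pools. Its log2 fold change was 0.70 ± 0.14 (SE) and called (adjusted p = 0.02, edgeR's quasi-likelihood test), less than the 3.91 of nfr. The call was lost with RLE size factors (0.18), with the replicate block and when any of 5 pools was left out (0.63 to 0.70). The neighbours ttc3 and ripply3 of pigp, and vwa3a and cdr2a of sdr42e2, were not among the listed genes. No member overlaps a neighbour in this annotation, whose build is not that of the deposited files, and the sources used here do not give the strand setting of the counting.

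The listed markers of blood cells differed between the groups, as every listed gene did in the authors' comparison. The marker lists were chosen with earlier results of these data known, and markers outside the table could not be seen. Nothing is therefore read from how many were listed or shared a direction. Of 25 erythrocyte markers 22 were listed, all 22 higher in the mutants and 20 called, and their summed level was 166104 to 217465 normalized counts in the mutant pools and 53375 to 87046 in the wild-type pools. Of 12 neutrophil markers 7 were listed, all 7 higher and called (sums of 5207 to 6618 in the mutants and 2874 to 3114 in wild type). Of 13 macrophage markers 8 were listed, all 8 lower and 6 called (sums of 13225 to 18787 in the mutants and 20839 to 27572 in wild type). Over all listed genes 58.9% were higher and 41.1% lower, and the test called 37.5% as higher and 29.3% as lower. With RLE size factors 7 of the erythrocyte markers and 0 of the neutrophil markers were called higher, and all 8 listed macrophage markers were called lower. RLE size factors rest on genes all selected for a difference, so nothing is read from the calls lost with them. No listed marker was at 0 in any pool. In whole embryos, more cells of a type and more RNA per cell cannot be told apart, and the part of these cell types in the level of the 5 genes was not tested.

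The size of every fold change depends on the scale between the groups. Size factors over the listed genes alone (RLE) shift the mean scale between the groups by -0.517 (log2), and TMM over the same genes by -0.385. The shift of a single gene can differ slightly from this. Neither RLE nor TMM has an unchanged majority of genes to rest on here, as all listed genes were selected for a difference. With RLE the log2 fold change was 2.74 for pigp, 1.82 for sccpdha, 1.70 for foxq1a, 1.81 for sdr42e2 and 3.40 for nfr, so all 5 remained higher in the mutants.

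**Figure D4:**
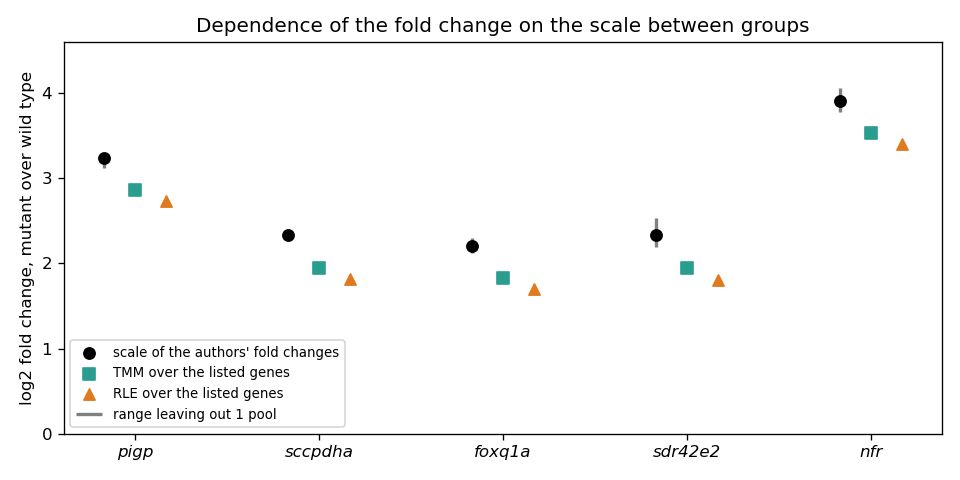
Log2 fold change, mutant over wild type, of each gene on the scale of the authors' fold changes (circle, with the range when 1 pool is left out) and with TMM or RLE size factors over the listed genes. All values are above 1.5, and nfr is the highest on each scale.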

How the data were processed

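Per the submitters' processing notes, Trimmomatic, STAR 2.7, RSEM and the build danRer11 were used, without roles or settings. Per gene, the authors deposited their log2 fold change, the same as a ratio (fold change), the p-value with its adjusted form, and a value for each library. No listed gene had an adjusted p above 0.04997 or a log2 fold change nearer to 0 than 0.5856. The adjusted p of the first gene gives 26889 genes adjusted over. Per library the authors deposited expected counts from RSEM, each multiplied by 1 of 8 factors (0.9784 to 1.0252) that run in cyclic order over cells and not libraries. Dividing them out turned all 10152 nonzero values into multiples of 0.01, 56.5% of them whole.

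Within a group, size factors came from the median of ratios (genes with a mean of 50 or more), with 1 offset between groups (-0.235, log2) fixed to the authors' fold changes. Of 648 genes at that mean, 95.7% were then within 0.01 of the authors' log2 value. Rounded counts were tested with edgeR 4.0.16 (R 4.3.3) by the quasi-likelihood test after filterByExpr (minimum count 10, minimum total 15), which left 1126 genes. Adjustment was by Benjamini and Hochberg over 26889 genes, with a call at 0.05. The SE given is the absolute log2 fold change divided by the square root of the test's F statistic. It is thus drawn from the test itself and is no separate estimate of error. Both steps were tested on simulated data. DESeq2 1.42.0, RLE, TMM, other filters, a replicate block and each pool left out were alternatives.

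The members and gene lists were chosen with earlier results of these data known. Genes named were the members, iqgap1, the 3 nearest profiles per member (clone names and clone accessions left out) and listed members of the 4 related lists; genomic neighbours were added later. Of the 1293 listed genes, 902 were placed in GRCz12tu by symbol, synonym or Ensembl name. Protein and promoter sequences were not used here. No 2 pools of a group agreed within sampling noise (smallest chi-square per degree of freedom 2.63).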

Additional observations from a re-analysis of the deposited data

Results flagged for a closer look

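For the 5 genes, iqgap1 and the other named genes, the highest or lowest of the 4 pools of each group was set against the other 3 by Dixon's test. Mutant pool 1 stood apart in both cases found. It had 514 normalized counts of pigp, where the other mutant pools had 368 to 392. It also had 46.2 normalized counts of crp2, where the others had 22.3 to 24.4. In 48 such groups chance gives about 2.4. The gap was 0.83 of the range for pigp, just past the critical value, and 0.91 for crp2. The gene crp2 was included because its profile over the same pools lay near those of pigp and nfr. Both cases are therefore not independent of each other.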

How the results depend on the processing

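In 70 refits of the 5 genes (14 settings each), all 5 stayed higher and called. As the genes were chosen on this contrast in the same pools, nothing is read from this count. With RLE and TMM the log2 fold changes of all 5 fell below their ranges with 1 pool left out. That of sdr42e2 was 1.81 with RLE and 1.95 with TMM. RLE size factors over the listed genes gave 2.74 for pigp, 1.82 for sccpdha, 1.70 for foxq1a and 3.40 for nfr. TMM gave 2.87 for pigp, 1.95 for sccpdha, 1.83 for foxq1a and 3.53 for nfr. A pseudocount of 5 in the difference of mean log2 gave 3.13 for nfr, whose wild-type counts are near that size. Leaving out 1 pool gave 3.12 to 3.30 for pigp, 2.27 to 2.39 for sccpdha, 2.12 to 2.30 for foxq1a, 2.19 to 2.53 for sdr42e2 and 3.78 to 4.06 for nfr. The floor of 10 counts put 1 gene, nfr, at the floor in wild type in place of 0.

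Of the listed genes, 752 were called, 422 higher and 330 lower. RLE gave 113 higher and 465 lower and TMM 162 higher and 451 lower, so that most calls were then lower; both shift every gene down. At an adjusted p under 0.01, 433 were called, 248 higher and 185 lower. Leaving out 1 pool gave 535 to 799 calls, 303 to 478 higher and 231 to 321 lower. With the replicate block 544 were called. Same-numbered pools did not deviate together (r of 0.01, 0.11, -0.24 and -0.11 over 654 genes), and 0 of 4 mutant pools correlated best with its own number, so the numbers were not used as pairs. With the block the log2 fold changes included 3.23 for pigp, 2.33 for sccpdha, 2.39 for sdr42e2 and 3.92 for nfr.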
